A study of Homo sapiens with 8 samples.

Results

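ETV6, ERG, FLI1 and ETS1 encode transcription factors of the ETS family, and the open chromatin of their 4 loci was compared between leukaemia lines and between SETD2-edited clones and controls. The members are all peaks that overlap a window around each gene in hg19: 11.77 to 12.08 Mb on chromosome 12 for ETV6, 39.73 to 40.06 Mb on chromosome 21 for ERG, 128.53 to 128.7 Mb on chromosome 11 for FLI1, and 128.3 to 128.52 Mb on chromosome 11 for ETS1. Together the 8 deposited lists held 500 such peaks among 532743. Peaks of different libraries that shared at least 1 bp were merged into a region, which gave 107 regions of 133028 in the genome: 24 at ETV6, 26 at ERG, 30 at FLI1 and 27 at ETS1.

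The lines are 697 and KOPN-8, established human B cell precursor acute lymphoblastic leukaemia lines. In each line 2 control libraries came from cells with an empty guide RNA vector and wild-type SETD2. Another 2 libraries came from a clone edited at SETD2 and labelled as a heterozygous knockout, BM_B in 697 and BA in KOPN-8. SETD2 methylates histone H3 within the bodies of transcribed genes. The assay was ATAC-seq, where a transposase inserts adapters into accessible DNA and peaks mark stretches of frequent insertion. Each clone group is 1 clone, so an effect of the edit and a difference of that clone from a bulk population cannot be told apart. The libraries are called biological replicates without mention of separate cultures, so p-values measure the spread between these libraries, which may be technical. The length of the lists ranged from 57154 to 76495 peaks, the read depth behind them is unknown, and the number of libraries limits the precision.

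ETS factors share a DNA-binding ETS domain that recognises sites with a GGAA core. ETV6 is a repressor that blood stem cells need, and its gene is disrupted or fused to RUNX1 in childhood B cell leukaemia. ERG and FLI1 are close relatives that act in stem cells and megakaryocytes, and ETS1 acts in lymphocyte development. In the RefSeq gene order ETS1 and FLI1 are neighbours, with no protein-coding gene between them. Their windows lie 10 kb apart, and ETS2 is the next protein-coding gene after ERG. No hg19 annotation was used, so regions are given by position, and whether one is a promoter, an exon or an intron was not determined. The cell type of the lines was not checked against marker genes for the same reason.

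All 4 loci held more peaks per Mb than the genome. FLI1 had the densest peaks, with 82.4 to 129 per Mb over the 8 libraries, followed by ETS1 with 54.5 to 90.9, ETV6 with 41.9 to 58.1 and ERG with 30.3 to 54.5. Over the spans of all chromosomes the lists held 19.3 to 25.8 peaks per Mb, so the lowest value at any of the loci lay above the highest value over the genome. These spans ran from the first to the last peak of a chromosome, while the windows were drawn around genes. Windows around other genes were not counted, so the higher density is not shown to be particular to these loci. The ranges of FLI1 and ETS1, of ETS1 and ETV6, and of ETV6 and ERG overlapped.

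ERG was the only locus whose numbers of peaks did not overlap between the lines. In 697 the control libraries had 14 and 12 ERG peaks and the clone libraries 16 and 18. In KOPN-8 each arm had 1 library with 11 and 1 with 10. Every 697 library thus held more ERG peaks than any KOPN-8 library, with 15 ± 2.58 (SD, n = 4) against 10.5 ± 0.577 (exact permutation test, two-sided, p = 0.0286, the smallest that 4 against 4 can give). Peaks covered 4312, 4192, 6506 and 7337 bp of the window in 697, controls first, and 3544, 3005, 2917 and 2576 bp in KOPN-8. Covered bases did not overlap between the lines either (exact permutation test, p = 0.0286). The whole of chromosome 21 leaned the same way, with 1.20 to 1.44% of the peaks of a 697 list and 1.12 to 1.16% of a KOPN-8 list, and its part in the ERG difference was not tested. With lists cut to equal length KOPN-8 minus 697 was -5.75 peaks and p was again 0.0286 by exact permutation. Without any 1 of the KOPN-8 libraries, and among the strongest 50% of each list, the exact permutation test of ERG peaks gave p = 0.0571.

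At the other loci the numbers of peaks overlapped between the lines. ETV6 had 13 to 17 peaks in 697 and 15 to 18 in KOPN-8, a difference of 1.5 between means (exact permutation test, p = 0.314). FLI1 had 15 to 19 and 14 to 22, a difference of 0.25 (exact permutation test, p = 1). ETS1 had 15 to 20 in 697 and 12 to 18 in KOPN-8 (exact permutation test, p = 0.257), so the ranges overlapped. With lists cut to equal length, KOPN-8 minus 697 was -3 peaks at ETS1 (exact permutation test, p = 0.0571). Covered bases at ETS1 did separate the lines, with 8634 to 10438 bp in 697 and 6955 to 7859 bp in KOPN-8 (exact permutation test, p = 0.0286). Chromosome 11, which holds ETS1 and FLI1, leaned the same way, with 5.54 to 5.81% of the peaks of a 697 list and 4.90 to 5.07% of a KOPN-8 list, and its part in this difference was not tested. On the full lists these were 4 tests of peak numbers and 4 of covered bases, without adjustment.

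**Figure D1:**
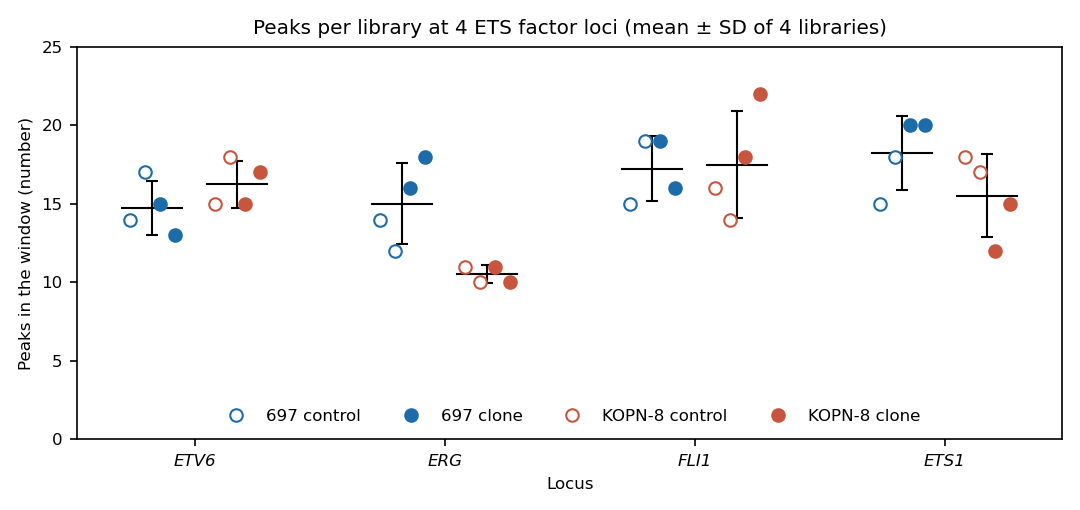
Number of peaks (vertical axis) in the window of each locus (horizontal axis) for every library. Open points are controls, filled points are clones, and black bars give the mean ± SD of the 4 libraries of a line. At ERG the 697 points lie between 12 and 18 and the KOPN-8 points at 10 and 11.

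The positions of the peaks were compared next. Of the 107 regions, 27 (25.2%) were called in all 8 libraries, against 20.4% of all regions in the genome. A further 11 (10.3%) were called in all 4 libraries of 697 and in none of KOPN-8, against a background of 5.85%, and 8 (7.48%) showed the reverse, against 7.30%. The share specific to KOPN-8 was thus near the background and that specific to 697 was above it. Of the regions specific to 697, 5 were at FLI1, 3 at ERG, 2 at ETS1 and 1 at ETV6. Chromosomes 11 and 21, which hold FLI1, ETS1 and ERG, also made up more of the 697 lists, and their part in this share was not tested. In the strongest 50% of each list the counts were 5 and 5. Another 24 regions (22.4%) were called in 1 library, against 30.2% in the genome. Their median width of 208 bp lay close to the minimum of 200 bp, as did the 220 bp of such regions in the genome. The median width was 764 bp where all 8 libraries had a peak, against 718 bp for such regions in the genome.

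The loci differed in how much the lines shared. ETV6 and ETS1 had 9 of 24 and 10 of 27 regions called in all 8 libraries, 37.5% and 37.0%. FLI1 had 6 of 30 (20.0%) and ERG 2 of 26 (7.69%). Line-specific regions were most frequent at FLI1, with 5 of each kind (16.7% and 16.7%). Some of these ranked low in their lists, as given below. On average 65.4% of the ETS1 regions called in either library were called in both when a 697 and a KOPN-8 library were paired (57.1 to 81.3% over 16 pairs). The same share was 56.9% at ETV6, 32.3% at FLI1 and 29.0% at ERG, against 40.9% in the genome. FLI1 and ERG thus lay below the genome and ETV6 and ETS1 above it, and no test was made because all pairs reuse the same 8 libraries. At ERG, sharing was also low within KOPN-8, at 55.8% for duplicates and 44.9% for a control and a clone. The genome had 70.7% and 66.1% in that line. In 697 the ERG shares were 72.2% and 63.0%, against 65.2% and 62.7% in the genome. The part of this in the ERG share between lines was not tested.

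**Figure D2:**
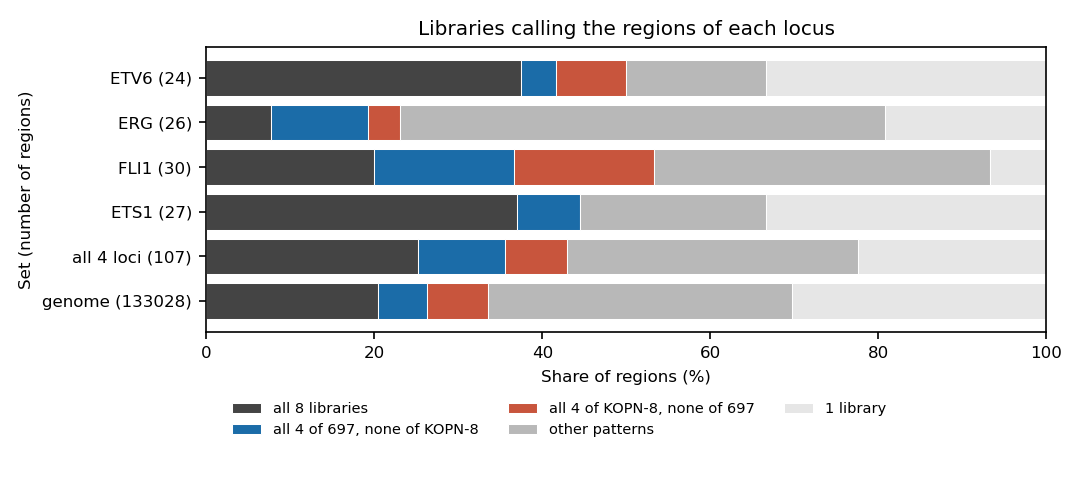
Share of regions (horizontal axis, %) by the libraries that call them, for each locus, the 4 loci together and the genome, with the number of regions in brackets. The dark segment, regions of all 8 libraries, takes 37.5% at ETV6 and 7.69% at ERG.

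At ETV6 a framework of shared regions held a few line-specific ones. The widest region of the locus, from 11801680 to 11803339, was 1660 bp wide and called in all 8 libraries. Strength is given as the percentile of a peak within its own list, ranked by the value the authors deposited for it, so a high percentile marks a strong peak of that library. A region is called firm here when its lowest percentile over the libraries that call it is high. The firmest shared ETV6 region, from 11879971 to 11880712, lay at 73.7, 76.9, 64.9 and 59.7 in 697 (control 1, control 2, clone 1, clone 2, the order used from here on). In KOPN-8 it lay at 64.3, 66.8, 69.3 and 53.8, so the lines overlapped. Next came the regions from 11965304 to 11966533 and from 12008098 to 12009173, with smallest percentiles of 38.4 and 34.6.

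The 697-specific ETV6 region, from 11842543 to 11843176, lay at 62.9, 48.4, 69.9 and 82.6 in the 697 lists. None of the KOPN-8 lists had a peak there. KOPN-8 had its own strong ETV6 region from 11989115 to 11989828, at 71.4, 74.5, 83.9 and 83.9 and 485 to 616 bp wide, where no 697 list had a peak. That region was stronger in all 4 KOPN-8 lists than the firmest shared ETV6 region was in the same list. A weak KOPN-8 region from 11781811 to 11782257 lay between 11.7 and 25.2.

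At ERG 15 of 26 regions (57.7%) fell in no class named above, against 36.2% in the genome. Some of these were called in all 4 libraries of 1 line and in part of the other. The region from 39776083 to 39776646 was 1 of the 2 called in all 8 libraries and the strongest ERG region of each 697 list. It lay at 79.9, 82.7, 93.3 and 93.6 in 697 and at 56.2, 33.9, 14.0 and 38.6 in KOPN-8, so no KOPN-8 value reached the 697 values. The other region of all 8 libraries, from 39807126 to 39807504, was weak in most lists, at 28.3, 27.3, 37.7 and 55.7 in 697 and 47.9, 26.6, 24.4 and 6.32 in KOPN-8.

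Of the line-specific ERG regions 3 belonged to 697 and 1 to KOPN-8. The 697 regions ran from 39811914 to 39812435 (percentiles 31.9 to 70.8), from 39938834 to 39939905 (34.3 to 47.9) and from 39970186 to 39970862 (21.1 to 57.5). The second was also the widest ERG region, at 1072 bp. The KOPN-8 region, from 40051454 to 40051903, was the last of the window. It lay at 70.5, 70.5, 85.5 and 77.9 and was the strongest ERG region in every KOPN-8 list, while no 697 list called it. The strongest ERG peak of each line therefore lay at opposite ends of the window, 46.1 and 321 kb from its start.

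FLI1 held both shared regions and regions specific to a line. Its 20.0% of regions called in all 8 libraries was near the 20.4% of the genome. Regions with peaks from both lines made up 40.0%, against 39.5% in the genome. Those specific to 697 and to KOPN-8 were more frequent than in the genome, at 16.7% each against 5.85% and 7.30%. The firmest shared region, from 128627137 to 128627555, lay between 66.6 and 84.2 in 697 and between 78.4 and 84.7 in KOPN-8. The widest, from 128563636 to 128565326, was 1691 bp wide. Directly before it lay regions with the lowest deposited values of all members. In the region from 128562129 to 128562439, called in the 4 lists of 697 alone, the deposited values were 2.01 to 2.50, at percentiles of 0.0143 to 0.197. They were read as folds over background, a unit the lists do not state. The next region, from 128562713 to 128563476, was called in all 8 lists at deposited values of 2.53 to 3.29.

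The FLI1 regions specific to 697 lay between 4.06 and 32.1 kb from the start of the window and at 116 kb, and those specific to KOPN-8 lay between 35.8 and 74.2 kb. Some were weak. In 697 the regions from 128561729 to 128562035 and from 128562129 to 128562439 lay at percentiles of 11.9 or lower. In KOPN-8 those from 128565801 to 128566073 and from 128600953 to 128601263 lay at 26.3 or lower. The 3 firmest of 697 ran from 128556753 to 128557126 (59.3 to 67.9), from 128534064 to 128534659 (48.8 to 66.5) and from 128646390 to 128646718 (35.9 to 56.8). The 3 firmest of KOPN-8 ran from 128604240 to 128604694 (61.8 to 81.2), from 128596397 to 128596990 (58.5 to 67.0) and from 128590325 to 128590922 (20.3 to 44.2). Between the last pair lay a shared region, from 128595269 to 128596281, that was strong in 697, at 86.0, 84.0, 81.3 and 85.4. In KOPN-8 it lay at 49.3, 35.9, 54.4 and 65.6, below every 697 value.

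ETS1 held the strongest peaks of the 4 loci, shared by both lines. The region from 128391798 to 128392847 lay at 93.2, 96.9, 95.7 and 95.5 in 697 and at 94.2, 91.0, 95.3 and 95.6 in KOPN-8. Its values overlapped between the lines and, in 697, between the arms. The regions from 128480538 to 128481588 and from 128473746 to 128474353 followed, with smallest percentiles of 72.6 and 67.0. Both ETS1 regions specific to a line belonged to 697: from 128418345 to 128419454, the widest of the locus at 1110 bp (43.0 to 64.8), and from 128371801 to 128372211 (9.52 to 36.8). KOPN-8 had 0 specific ETS1 regions.

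**Figure D3:**
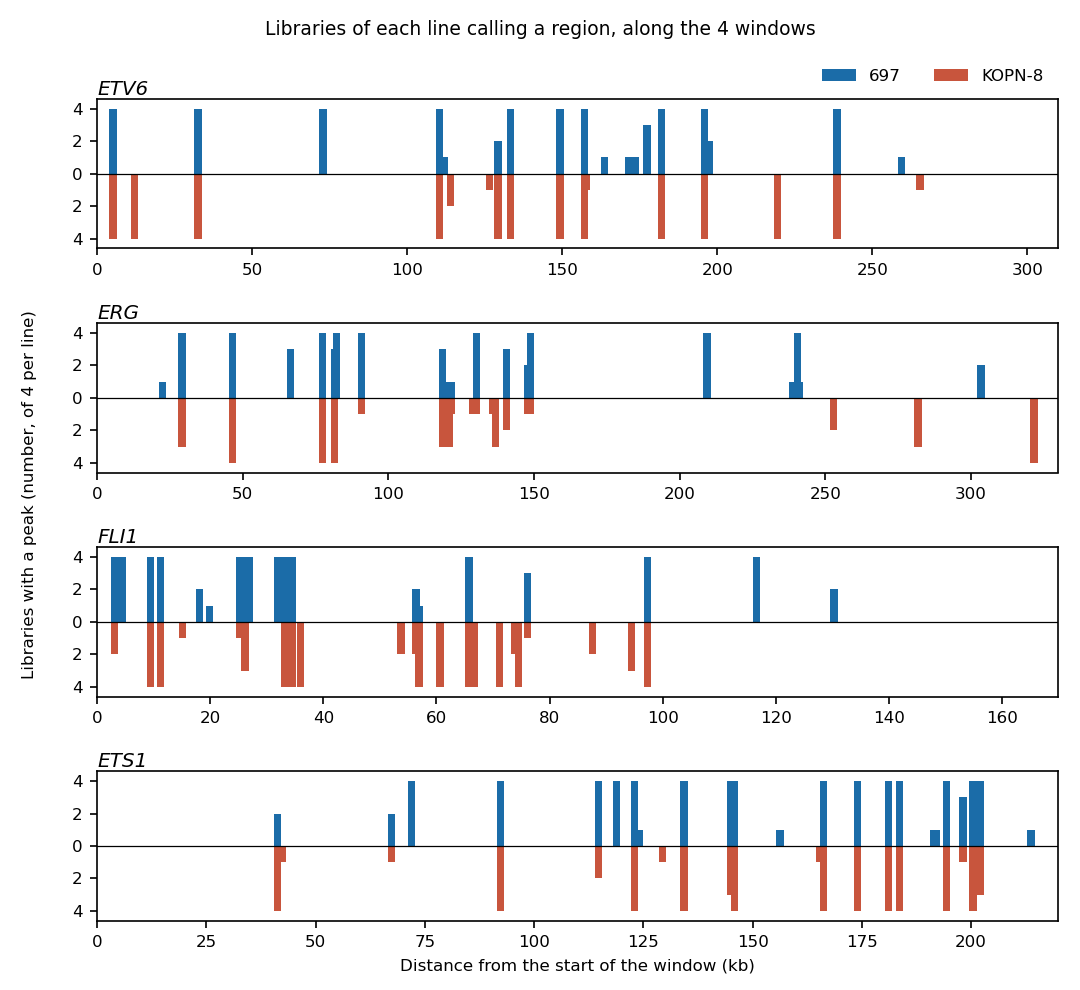
Number of libraries with a peak in each region, 697 upwards and KOPN-8 downwards (vertical axis), against the distance of the region from the start of its window in kb (horizontal axis). Bars are drawn wider than the regions to be visible. Bars of equal height on both sides mark shared regions, which are frequent at ETV6 and ETS1. At FLI1 the bars of height 4 on the lower side alone lie between 35.8 and 74.2 kb.

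Shared regions also differed in strength. Of the 27 regions called in all 8 libraries, 7 (25.9%) had all 4 percentiles of 697 above all 4 of KOPN-8, against 19.0% of such regions in the genome. The reverse held for 4 (14.8%), against 13.3%. The first share lay above the background and the second near it, with no test of either. With all lists cut to the same length the counts were 7 and 2.

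The largest contrast within ETS1 was the region from 128422579 to 128423333. It lay at 31.7, 26.2, 27.3 and 36.7 in 697 and at 80.2, 83.6, 88.4 and 90.1 in KOPN-8. The opposite was seen from 128465996 to 128466491, at 91.1, 82.9, 79.9 and 89.0 in 697 and 42.5, 33.1, 54.4 and 66.4 in KOPN-8. In neither region did the lines overlap, so the ETS1 locus held shared regions ranked far apart in both directions. These regions were singled out after their values were seen.

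Elsewhere the widest ETV6 region lay at 61.6 to 64.7 in 697 and 23.1 to 43.4 in KOPN-8. The widest FLI1 region leaned the other way, at 43.3 to 51.5 and 59.6 to 65.2. At FLI1 the region from 128540777 to 128541612 lay at 85.4, 84.6, 78.9 and 86.2 in 697 and 68.3, 55.2, 43.3 and 44.6 in KOPN-8. Members called in all 8 libraries ranked lower than other such regions, with a median of 55.4 for the mean percentile against 71.9 in the genome.

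**Figure D4:**
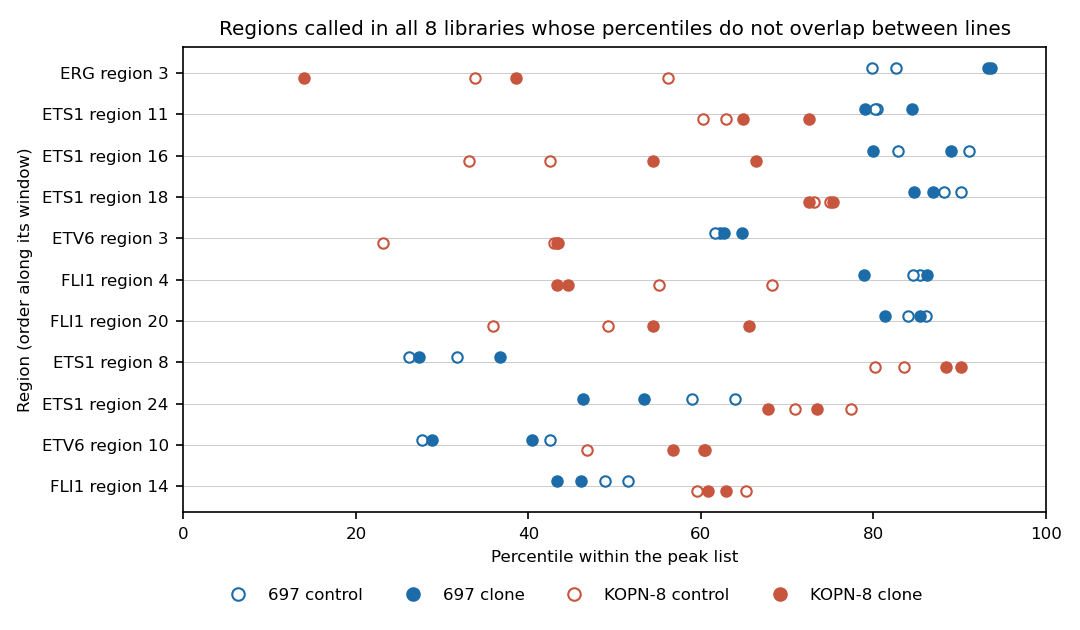
Percentile within the peak list (horizontal axis) of each library at the 11 regions called in all 8 libraries whose values do not overlap between the lines (vertical axis, numbered along each window). Blue points are 697 and red points KOPN-8, open for controls and filled for clones. The widest gap is at ETS1 region 8, with 697 at 26.2 to 36.7 and KOPN-8 at 80.2 to 90.1.

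The comparison of clones with controls found few regions that appeared or disappeared. A region was gained when both clone libraries of a line called it and neither control did, and lost in the reverse case, over the regions merged from the 4 lists of that line. In 697, 3 of 81 regions were gained (3.70%, background 4.33%) and 1 was lost (1.23%, background 1.83%). In KOPN-8, 3 of 78 were gained (3.85%, background 3.61%) and 2 were lost (2.56%, background 3.81%). All 4 shares were near the background. Of these regions 0 changed in both lines, but the same overlap was not computed over all regions. With so few changed regions, no conclusion about the lines is drawn from it. None of the 9 was called in the strongest 50% of both lists that define it.

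Of the gained regions in 697, 1 was at ERG, from 39877649 to 39877927, at percentiles of 49.5 and 56.1 in the clone lists. The other 2 were at ETS1, from 128341241 to 128341521 (22.3 and 11.7) and from 128367160 to 128367475 (16.3 and 8.59). All 4 KOPN-8 lists called the first of these ETS1 regions. The region lost in 697 was at ERG, from 40033216 to 40033698, at 30.5 and 15.1 in the controls. It was not called in KOPN-8. Chromosome 21, where ERG lies, had 7.96% of its regions gained and 1.5% lost in the 697 clone.

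In KOPN-8 the clone gained a region at ETV6, from 11883834 to 11884064, at 12.4 and 9.66. At FLI1 it gained those from 128532883 to 128533266 (34.0 and 41.7) and from 128617387 to 128617814 (4.23 and 38.0). All 4 of the 697 lists called the first of these FLI1 regions. Both lost regions were at ERG, from 39982537 to 39983002 (26.5 and 28.8 in the controls) and from 39870364 to 39870792 (29.2 and 25.1). Of the 697 lists 3 called the latter.

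Numbers of peaks could not pass a test between arms, since 2 against 2 libraries cannot give a two-sided p below 0.333. ETS1 had 15 and 18 peaks in the 697 controls against 20 in each library of the clone. The KOPN-8 controls had 18 and 17 ETS1 peaks and the clone libraries 12 and 15, so the arms did not overlap in either line and lay in opposite order. With lists cut to equal length within a line, the clone minus control difference at ETS1 was 1 peak in 697 and 0 in KOPN-8, so this order did not hold there. At ERG the difference of 4 peaks in 697 was 0.5 with such lists. At FLI1 the KOPN-8 controls had 16 and 14 peaks and its clone 18 and 22. At ETV6 the arms overlapped in both lines.

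At ERG the 697 clone ranked above its controls in many regions. Of 9 ERG regions called in all 4 lists of 697, 5 had both clone percentiles above both control percentiles and 0 below, against 23.2% and 14.9% of such regions in the genome and 30.6% and 12.5% on chromosome 21. The region from 39758929 to 39759290 lay at 44.0 and 29.7 in the controls while the clone had 60.8 and 80.3. That from 39878582 to 39879108 lay at 54.7 and 62.2 in the controls while the clone had 71.7 and 84.9. Peaks covered 4252 ± 84.9 bp of the ERG window in the controls (SD, n = 2) and 6922 ± 588 bp in the clone, whose 2 lists did not overlap the controls (exact permutation test, p = 0.333). The lean of chromosome 21 as a whole moved with this, and its part was not tested.

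FLI1 and ETS1 leaned the other way in the 697 clone. At FLI1 1 of 14 regions (7.14%) ranked higher in the clone and 6 (42.9%) lower. At ETS1 1 of 15 (6.67%) ranked higher and 4 (26.7%) lower. In that line 23.2% of such regions ranked higher and 14.9% lower in the genome, and 22.8% and 16.3% on chromosome 11. In the KOPN-8 clone 7 of 11 ETS1 regions ranked higher and 0 lower, against 21.9% higher and 23.4% lower in the genome. They included the strongest of the locus, at 94.2 and 91.0 in the controls while the clone had 95.3 and 95.6. The region from 128473934 to 128474353 was among them, at 73.6 and 71.4 in the controls while the clone had 82.5 and 85.5. In the other 4 of these 11 regions, all called in the 4 lists of KOPN-8, the percentiles of the arms overlapped. An example is the region from 128500315 to 128500664, with controls at 77.4 and 70.8 and clone libraries at 73.5 and 67.7. Over the 4 loci, 10 of 48 regions (20.8%) ranked higher and 11 (22.9%) lower in the 697 clone, against 23.2% and 14.9% in the genome. In the KOPN-8 clone 14 of 40 (35.0%) ranked higher and 4 (10.0%) lower, against 21.9% and 23.4%. Single regions moved far in rank. At ETV6 the region from 11951650 to 11952434 lay at 37.0 and 37.0 in the 697 controls and at 61.5 and 55.0 in the clone. At FLI1 the region from 128539224 to 128539732 lay at 33.3 and 40.5 in the 697 controls and at 23.1 and 8.18 in the clone. These are counts and ranks over regions of the same 4 libraries, and ranks from lists of different lengths do not measure a change in accessibility.

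**Figure D5:**
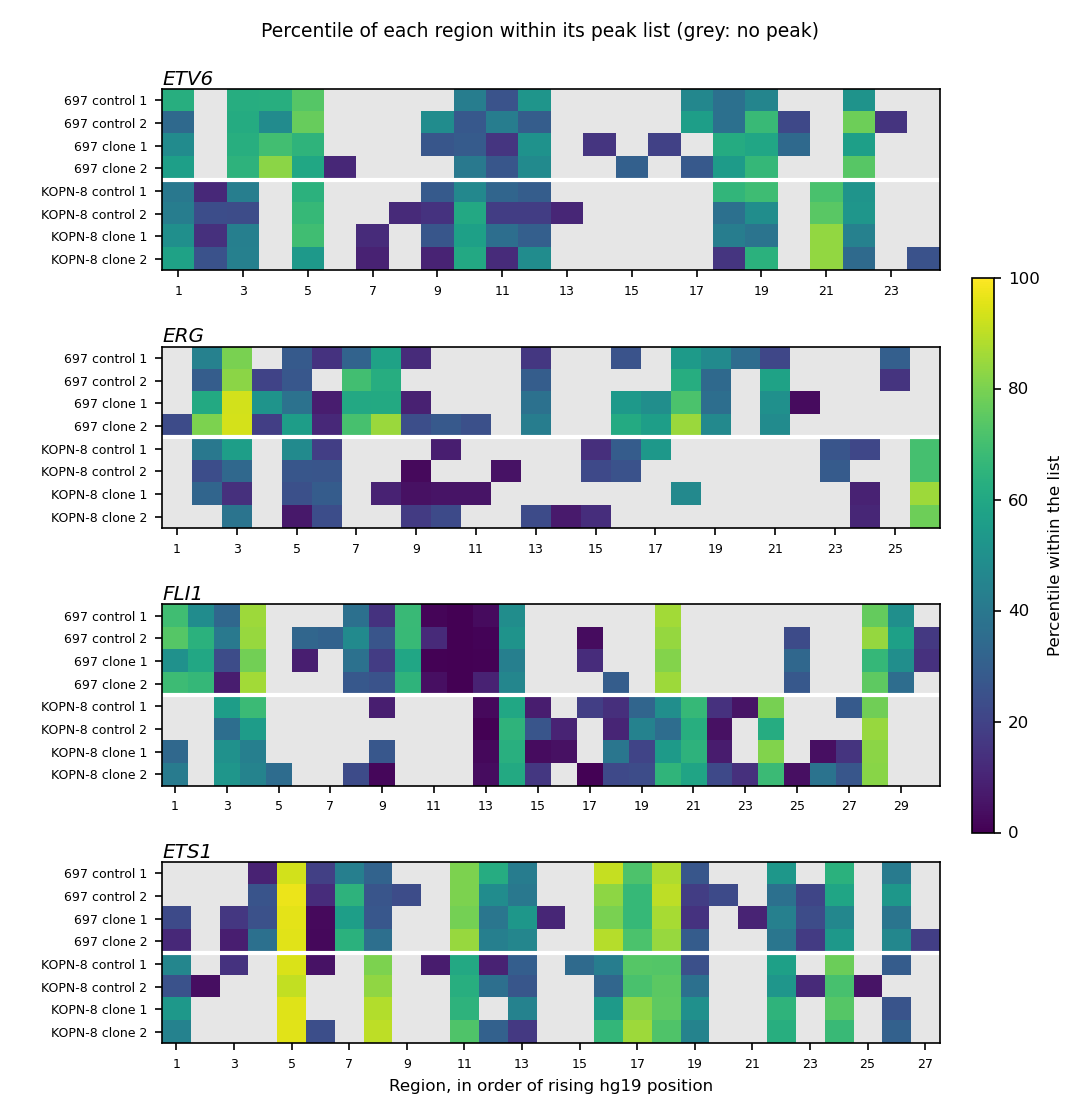
Percentile within the peak list (colour) of every region of the 4 loci (horizontal axis, in order of position) in each library (vertical axis, 697 above the white line and KOPN-8 below). Grey means that the library has no peak. ETS1 region 5 is at 91.0 or higher in all 8 libraries, and ERG region 26 is coloured in KOPN-8 alone.

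Over these loci together, as over the genome, the lines differed more than the arms within a line. Over the 107 regions, duplicates shared 75.9% of the regions called in either library in 697 and 71.9% in KOPN-8. A control and a clone of the same line shared 74.1% and 68.0%, and libraries of different lines 44.6% (37.3 to 49.4% over 16 pairs). Over all regions of the genome the same shares were 65.2% and 70.7% for duplicates, 62.7% and 66.1% for a control and a clone, and 40.9% between lines. In 697 the range of control and clone pairs, 69.3 to 77.6%, enclosed both duplicate pairs, at 75.8 and 76.0%. In KOPN-8 the duplicates lay at 68.8 and 75.0% and the control and clone pairs between 60.9 and 74.2%. The arms therefore overlapped with the spread between duplicates, while the lines lay outside it.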

How the data were processed

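ATAC-seq peaks of 8 libraries were used. Bowtie2, MACS2 and hg19 are named per the submitters' processing notes, and their settings are not stated in the sources used here. Each library has its own list. The value the authors deposited for each peak was taken, from its range and its evenly spaced low values, to be a ratio (fold enrichment of the peak over local background). It was used to rank peaks within a list, and is quoted itself only for the weakest FLI1 regions.

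Peaks sharing at least 1 bp were merged over the 8 lists, or over the 4 of a line for clones against controls, with Python 3.11.15 (numpy 2.4.6, pandas 2.3.3). A region counted as called by each library with a peak inside. A region's strength was the percentile of its highest peak. Means were compared by exact two-sided permutation of libraries at a threshold of 0.05. Percentages over all regions of the genome were computed the same way as for the members. The calling code was tested on simulated lists. Alternatives were lists of equal length, the strongest 50% of each list, calls covering 50% of a region, other measures, a replicate block and leaving out each library.

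The members and lists were chosen with earlier results of these data known. Regions named were, per locus, the 3 firmest called in all 8 libraries, the 3 firmest of each line, every gained or lost region up to 6, and the widest. Other regions named were chosen after their values were seen, as were the comparisons of percentiles. Replicate numbers did not pair samples across groups. No hg19 sequence was used.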

Additional observations from a re-analysis of the deposited data

Results flagged for a closer look

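At ETS1 and ERG the clone lay on opposite sides of its controls in the lines. At ETS1 the number of peaks was higher in both clone libraries than in both controls of 697 and lower in both clone libraries of KOPN-8. The change in 697 minus that in KOPN-8 was 7.5 peaks (exact permutation of arm labels within each line, two-sided, p = 0.0556, the smallest this design can give). At ERG the covered bases were higher in both clone libraries of 697, with 6506 and 7337 bp where the controls had 4312 and 4192. The KOPN-8 clone had 2917 and 2576 bp, below the 3544 and 3005 of its controls. The difference between these changes was 3198 bp (exact permutation, p = 0.0556, again the smallest possible). Both were picked because the arms did not overlap and lay in opposite order in the lines. That pattern fixes p at its smallest value, so p is no support for either difference. Neither passed the threshold of 0.05, and the 8 such differences computed were not adjusted. With lists of equal length the ETS1 change was 1 peak in 697 and 0 in KOPN-8, and among the strongest 50% of each list the ETS1 order was turned in both lines.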

How the results depend on the processing

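Differences are given as KOPN-8 minus 697 or clone minus control, and the cause of each change was not tested. ERG peaks differed by -4.5 between the lines. Among the strongest 50% of each list the difference was also -4.5 (exact permutation test, p = 0.0571). Replicate numbers did not pair samples (correlations from 0.000597 to 0.0235). With a replicate block the ERG difference of -4.5 had p = 0.125, the smallest that the exact test then allows. With 1 library left out it ranged from -5.5 to -3.5.

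Several differences at the other loci turned in direction under some settings. At FLI1 the difference between lines of 0.25 became -1.75 with lists of equal length, -0.5 in the strongest 50% and -1504 bp as covered bases, and -1.25 to 1.42 with 1 library left out. The strongest 50% gave -1.5 at ETV6 and 0.5 at ETS1, while covered bases gave -2274 bp at ETS1 (exact permutation test, p = 0.0286). For the 697 clone, FLI1 gave -1.5 at equal length, -0.5 in the strongest 50%, -0.00114 percentage points of the list and -1.5 to 2.5 with 1 library left out. ETV6 in that clone gave 2 in the strongest 50% and 498.5 bp, and ETS1 -1 in the strongest 50%. For the KOPN-8 clone, ETS1 gave 2 in the strongest 50%, and ETV6 403 bp and -2 to 1 with 1 library left out.

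With lists of equal length, 5 regions were called in KOPN-8 alone, 2 shared regions ranked higher in KOPN-8, and 1 was gained and 0 were lost in the 697 clone. In the strongest 50%, 6 regions were called in all 8 libraries, 5 in 697 alone and 5 in KOPN-8 alone, and 2 and 0 shared regions ranked higher in 697 and in KOPN-8. There 0 regions were lost in the 697 clone, 3 ranked higher and 5 lower in it, and 7 ranked higher and 0 lower in the KOPN-8 clone. With calls covering 50% of a region, 17 were called in all 8 libraries, 2 were lost in the 697 clone and 0 in the KOPN-8 clone. Leaving out 1 library loosens these rules. It gave 4 to 7 shared regions higher in KOPN-8, 6 to 10 gained and 1 to 6 lost in the 697 clone, and 4 to 9 gained and 3 to 8 lost in the KOPN-8 clone. Ranked regions then numbered 11 to 21 higher and 13 to 21 lower in the 697 clone, and 17 to 21 and 7 to 14 in the KOPN-8 clone. Of 15 named line-specific regions 14 were kept at equal length and 5 in the strongest 50%, and of 9 gained or lost ones 5 and 0.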
